A study of Mus musculus with 6 samples.

Results

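RNA-Seq values of 10 genes that write, copy, remove or support DNA methylation and Polycomb marks were examined in mouse CD8+ T cells, out of 54446 genes in the files. The genes were chosen by name: *Dnmt1*, *Dnmt3a*, *Dnmt3b*, *Uhrf1*, *Tet1*, *Tet2*, *Tet3*, *Ezh2*, *Eed* and *Suz12*. The CD8+ T cells came from spleens of wild-type C57BL/6 mice aged 8 weeks, and 6 libraries were sequenced, 2 in each of 3 groups. Unstimulated cells were fresh, Control cells spent 72 h with antibodies against CD3 and CD28 and no magnets, and SMF cells received the same antibodies over the same 72 h in a static magnetic field of 0.3 T. Nothing in the labels says that the 2 libraries of a group came from separate animals, so the p values below measure the spread between these libraries.

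DNA methylation is laid down on cytosines by the DNMT enzymes. DNMT3A and DNMT3B can methylate unmarked DNA, DNMT1 copies the mark onto the new strand after replication, and UHRF1 recruits DNMT1 to the freshly replicated, partly methylated DNA. The TET enzymes oxidize the methyl group and so start its removal. PRC2, one of the Polycomb complexes, methylates a lysine in the tail of a histone through its catalytic subunit EZH2, which is active only together with EED and SUZ12. In CD8+ T cells both systems are known for silencing genes as activated cells divide and take on effector or memory fates, and EZH2 and DNMT3A have been studied for this role.

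The 4 genes that were called higher in Control than in Unstimulated libraries are shown first by the DNA before their starts. Windows of the 250 bases before each annotated start were read from RefSeq promoter sequences on GRCm38.p6, and all 10 genes matched, with 15 windows. They were searched on both strands for TTTCCCGC, TTTGGCGC, TTTCGCGC and TTTGCCGC, words that E2F factors of the cell cycle are known to bind, for CCAAT, the word of the NF-Y factor, for GGGCGG, the word of the Sp1 factor, and for TTTGAA, the CHR word of cell cycle genes. An E2F word was present in 1.86% of all 32851 windows of this length, a CCAAT word in 33.9%, GGGCGG in 32.7% and TTTGAA in 16.0%. Of the 10 genes, 3 had an E2F word, *Dnmt1*, *Uhrf1* and *Suz12*, and 5 had a CCAAT word, those 3 together with *Ezh2* and *Tet3*. In *Dnmt1* and *Uhrf1* the E2F word was in 1 window only, and their other windows had none. GGGCGG was present in 8, all but *Ezh2* and *Eed*, and TTTGAA in 4, *Dnmt1*, *Dnmt3b*, *Eed* and *Suz12*. The percentages are per window, whereas genes were counted over 15 windows, with up to 3 windows for a gene. The windows with an E2F word held 26 (*Dnmt1*), 30 (*Uhrf1*) and 37 (*Suz12*) CG pairs, beside a median of 6 over all windows. Counts of genes and percentages of windows are therefore not like measures. The stretches below run 5′ to 3′ on the strand of the gene, capitals mark the E2F and CCAAT words on either strand, and bases in annotated exons were left out except for the 30 bases around the word of *Dnmt1*, which lies in the first exon of *Dnmt1-201*, a transcript that starts farther upstream.
Dnmt1, chr9:20952824-20952853, minus strand: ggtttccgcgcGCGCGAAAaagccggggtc
Uhrf1, chr17:56304063-56304312, plus strand: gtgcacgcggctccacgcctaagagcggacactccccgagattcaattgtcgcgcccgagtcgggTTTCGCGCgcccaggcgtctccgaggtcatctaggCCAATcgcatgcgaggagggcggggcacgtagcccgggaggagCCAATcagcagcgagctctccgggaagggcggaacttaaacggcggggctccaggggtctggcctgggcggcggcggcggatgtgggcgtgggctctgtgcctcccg
Suz12, chr11:79992856-79993105, plus strand: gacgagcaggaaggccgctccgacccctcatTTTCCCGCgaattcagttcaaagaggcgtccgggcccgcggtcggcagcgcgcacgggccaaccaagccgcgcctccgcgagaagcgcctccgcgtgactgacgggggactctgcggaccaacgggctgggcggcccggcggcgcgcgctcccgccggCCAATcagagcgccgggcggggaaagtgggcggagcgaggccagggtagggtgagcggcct
Ezh2, chr6:47595059-47595183, minus strand: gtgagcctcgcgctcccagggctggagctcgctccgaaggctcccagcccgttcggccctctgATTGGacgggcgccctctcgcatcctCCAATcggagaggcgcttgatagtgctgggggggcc
The E2F word began 219 bases before the start in *Dnmt1* and in *Suz12* and 185 bases before it in *Uhrf1*. The *Ezh2* window held 3 CCAAT words, 2 of them in the stretch shown, and none of the E2F words searched. The *Dnmt1* window with the E2F word also held 3 CCAAT words, outside the bases shown. These are matches of letters only, and no binding was measured.

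Gene values are FPKM, fragments scaled to the length of the transcript and the size of the library, summed over the annotated transcripts of a gene. Depth, taken as bases covered by reads, was lowest in replicate 1 of the Unstimulated and Control groups (67.4 and 64.4 Mb), 132 and 172 Mb in their replicates 2, and highest in the SMF libraries (259 and 227 Mb). Sequencing runs also differed. The file headers place the 2 SMF libraries in a run of their own, so the field and the run cannot be told apart, whereas Unstimulated and Control libraries of the same replicate number shared a run. The spread within the SMF group therefore holds no difference between runs, unlike that within the other groups. Protein-coding genes took 68.7% to 69.2% of the summed FPKM in SMF libraries and 49.1% to 50.5% in the other 4. Markers of CD8 T cells were present in all libraries, with *Cd8a* between 35.5 and 192 FPKM. The 8 of them summed to 915 and 1031 FPKM in Unstimulated, 553 and 747 in Control and 1150 and 1126 in SMF libraries. Of the 8, 3 were called higher in SMF than in Control, *Cd8a*, *Cd3d* and *Trac*, beside 12.5% of all genes. *Cd8a* and *Cd8b1* were called lower in Control than in Unstimulated, beside 12.6% of all genes. *Cd8b1* measured 143 and 271 FPKM in Unstimulated, 50.3 and 123 in Control and 94.6 and 91.9 in SMF libraries. The 8 B cell markers summed to 287 and 306 FPKM in Unstimulated libraries, 45.3 and 49.9 in Control and 67.8 and 73.4 in SMF. The higher sum in SMF than in Control lay on *Ighm* (24.96 and 36.9 in Control, 68.5 and 65.1 in SMF), while *Cd79a* was called lower in SMF (13.4 and 6.96 against 1.85 and 2.43). The 8 myeloid markers summed to 145 and 168, 47.0 and 53.8, and 47.5 and 51.4 FPKM in the same order; in Control this was *Csf1r* alone, with the other 7 at 0, and *Csf1r* gave 41.1 and 50.4 in SMF. *Lyz2*, which defines myeloid cells, was listed at 0 in all 4 stimulated libraries and at 42.4 and 74.0 FPKM in the Unstimulated ones. Between 3 and 5 of the 8 B cell markers and between 5 and 7 of the 8 myeloid markers were at 0 in a stimulated library. The part of these markers in the comparisons below was not tested, and in bulk RNA fewer cells of a type and less RNA per cell cannot be told apart.

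**Figure D1:**
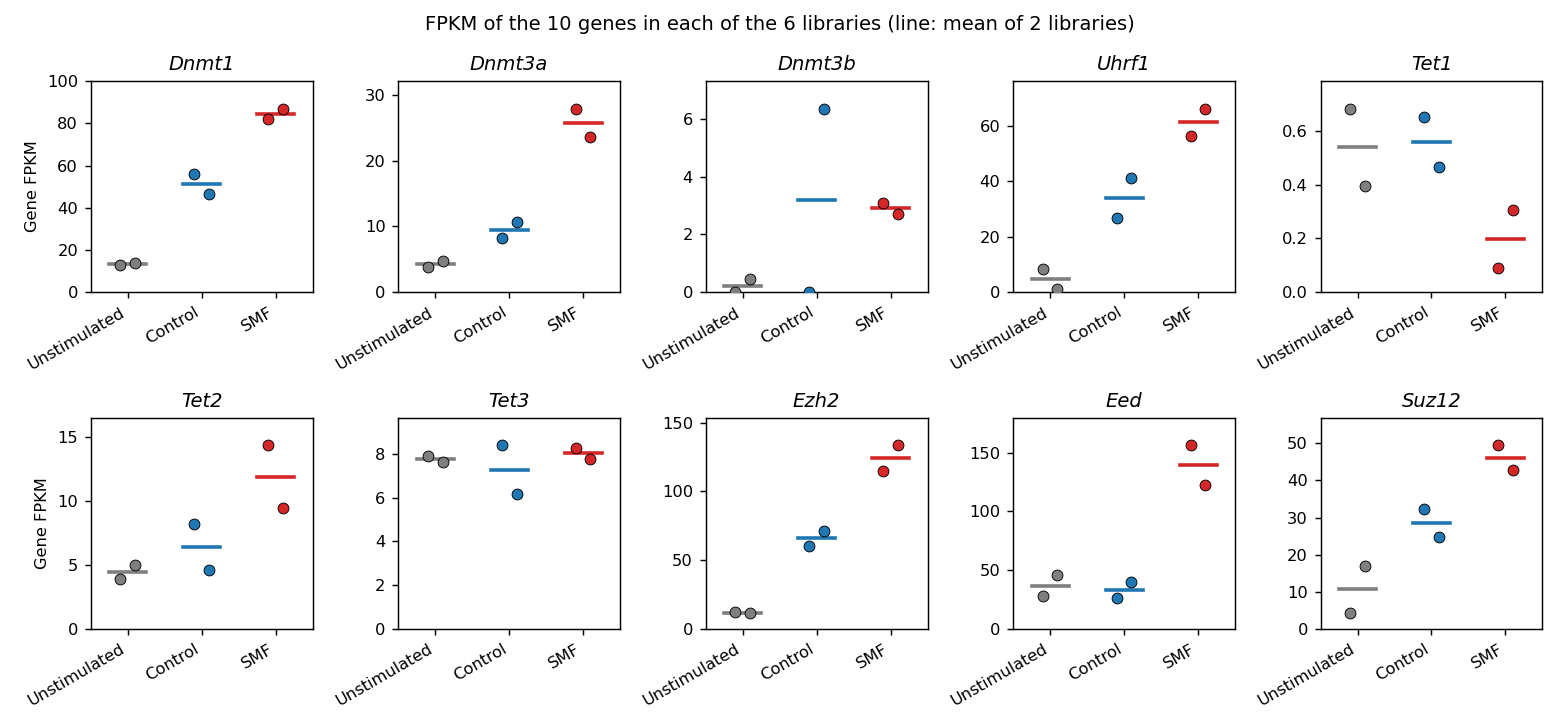
FPKM of each of the 10 genes (vertical axes, each from 0 and with its own scale) in the Unstimulated, Control and SMF groups; points are libraries and lines are means of 2 libraries. For *Dnmt1*, *Dnmt3a*, *Uhrf1*, *Ezh2* and *Suz12* the groups do not overlap, with Unstimulated lowest and SMF highest, *Eed* was separate only in SMF (123 and 156 FPKM), and *Tet3* stayed between 6.17 and 8.39 FPKM.

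The comparison of Control with Unstimulated libraries asks what 72 h of stimulation changed. A call required a fold change of 2 or more and an unadjusted limma p of 0.05 or less on log2(FPKM + 1). Of the 10 genes, 9 reached a mean of 1 FPKM and were tested. *Dnmt1*, *Uhrf1*, *Ezh2* and *Suz12* were called higher and none of the 9 was called lower. Over all 14991 genes tested, 12.3% were called higher and 12.6% lower. The median difference of the 9 genes was 1.18 on the log2 scale, beside -0.05 for all genes. Control libraries lay wholly above Unstimulated ones for 5 of the 9, and for 24.8% of all genes. *Dnmt1* and *Ezh2* also had a Benjamini-Hochberg adjusted p under 0.05 over all genes in limma, which 4.52% of all genes reached in the higher direction.

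*Ezh2* (ENSMUSG00000029687.16, chr6:47530139-47595341, minus strand), the catalytic subunit of PRC2, had the smallest standard error of the 4. It measured 12.1 and 11.4 FPKM in Unstimulated libraries, 60.03 and 71.6 in Control and 115 and 134 in SMF. The 3 groups did not overlap. Control exceeded Unstimulated by 2.39 on the log2(FPKM + 1) scale (SE 0.28; limma, adjusted p = 0.0118), and within the 2 shared runs the difference was 2.22 and 2.55. Part of the gene value lay on transcripts with retained introns or otherwise not typed as coding, above all in the fresh cells. On protein-coding transcripts alone *Ezh2* measured 4.78 and 4.24 FPKM in Unstimulated libraries and 43.2 and 41.4 in Control, a ratio of means of 9.39 where the whole gene gave 5.62.

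*Dnmt1* (ENSMUSG00000004099.16, chr9:20907209-20959888, minus strand), the maintenance methyltransferase, measured 12.8 and 14.0 FPKM in Unstimulated, 55.9 and 46.4 in Control and 81.8 and 87.0 in SMF libraries. Every Control library lay above every Unstimulated one and below every SMF one. The difference of Control from Unstimulated was 1.85 on the log2 scale (SE 0.28; limma, adjusted p = 0.0190), and 2.04 and 1.67 within the 2 runs. *Uhrf1* (ENSMUSG00000001228.14, chr17:56303321-56323486, plus strand), the partner that guides DNMT1, varied more. It measured 8.37 and 1.23 FPKM in Unstimulated, 26.7 and 41.2 in Control and 56.5 and 66.3 in SMF libraries. The 3 groups did not overlap, although the fresh libraries were far apart. The difference was 2.90 (SE 0.69; limma, adjusted p = 0.0555), with 1.56 and 4.24 within the runs. The call of *Uhrf1* was lost without Control replicate 2, which left a difference of 2.60 that missed the p limit. A near-identical copy, *Gm5648*, matches *Uhrf1* over 1590 bases at 98.3% identity and was listed at no more than 0.973 FPKM.

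*Suz12* (ENSMUSG00000017548.15, chr11:79993106-80034123, plus strand), which holds PRC2 together, measured 4.33 and 16.9 FPKM in Unstimulated libraries, 32.3 and 24.8 in Control and 49.5 and 42.7 in SMF. The groups did not overlap, but the fresh libraries differed widely, and the lower of them covered 4 of the 16 exons of *Suz12-201* where the other covered 15. The difference of 1.59 (SE 0.59; limma, adjusted p = 0.152) was 0.71 without Unstimulated replicate 1, and the call was lost there and in 6 of the other 17 alternatives. Within the runs it was 2.64 and 0.53. *Eed* (ENSMUSG00000030619.9, chr7:89954654-89980983, minus strand), the subunit that reads the mark PRC2 makes, did not share this pattern. It measured 27.9 and 45.5 FPKM in Unstimulated and 26.2 and 39.7 in Control libraries, which overlapped, and the interval of the difference ran from -1.04 to 0.76.

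*Dnmt3a* (ENSMUSG00000020661.15, chr12:3806007-3914443, plus strand), which sets new methylation, stood just outside the fold limit. It measured 3.74 and 4.68 FPKM in Unstimulated, 8.21 and 10.6 in Control and 27.9 and 23.5 in SMF libraries. Groups did not overlap, and the difference of Control from Unstimulated was 0.997 on the log2 scale (SE 0.39; limma, adjusted p = 0.166), with an unadjusted p inside its limit. Within the runs it was 0.96 and 1.04. *Dnmt3b* (ENSMUSG00000027478.15, chr2:153649450-153687730, plus strand), the other enzyme for new methylation, was listed at 0 in replicate 1 of both the Unstimulated and Control groups. The second replicates were at 0.437 and 6.36 FPKM, and the SMF libraries at 3.09 and 2.71. Of the 24 exons of *Dnmt3b-210*, reads covered 1 in Unstimulated replicate 2, 17 in Control replicate 2 and 10 in each SMF library. The groups overlapped, and the interval of the difference between Control and Unstimulated ran from -1.25 to 3.61 on the log2 scale.

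The TET genes, which act against the DNMT enzymes, were not called in this comparison. *Tet3* (ENSMUSG00000034832.15, chr6:83362373-83459084, minus strand) measured 7.92 and 7.65 FPKM in Unstimulated, 8.39 and 6.17 in Control and 8.26 and 7.77 in SMF libraries. All 3 groups overlapped, and the interval of the difference between Control and Unstimulated ran from -1.08 to 0.89. *Tet2* (ENSMUSG00000040943.12, chr3:133463679-133545139, minus strand) measured 3.91 and 4.95 FPKM in Unstimulated, 8.19 and 4.62 in Control and 14.3 and 9.43 in SMF libraries. Control and Unstimulated overlapped, while both SMF libraries were higher. *Tet1* (ENSMUSG00000047146.17, chr10:62804570-62908996, minus strand) was close to the limit of detection and below the level for testing. Its values were 0.683 and 0.394 FPKM in Unstimulated, 0.652 and 0.465 in Control and 0.0888 and 0.306 in SMF libraries, and reads covered between 1 and 4 of the 13 exons of *Tet1-206*.

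Levels of the 10 genes can be ordered within a group, since FPKM is scaled to length. The order here is that of sums over all transcripts of a gene. In Unstimulated libraries *Eed* was highest, at 27.9 and 45.5 FPKM, above *Dnmt1* and *Ezh2*, which were apart by a narrow margin (12.8 to 14.0 and 11.4 to 12.1), while the values of *Suz12* lay on either side of both. In Control libraries *Ezh2* led, *Dnmt1* followed without overlap, and *Uhrf1*, *Eed* and *Suz12* overlapped below them. In SMF libraries *Eed* and *Ezh2* overlapped at the top, followed in order and without overlap by *Dnmt1*, *Uhrf1*, *Suz12*, *Dnmt3a*, *Tet2* and *Tet3*. On coding transcripts alone the place of *Eed* was different. It overlapped *Dnmt1* in Unstimulated libraries, and in SMF libraries its 48.6 and 38.2 FPKM were below *Ezh2* (97.3 and 98.3), *Dnmt1* (81.7 and 83.7) and *Uhrf1* (52.8 and 65.9). In Control libraries *Dnmt1* then led, at 52.9 and 45.004 FPKM against 43.2 and 41.4 for *Ezh2*. *Dnmt1* made up between 72.5% and 87.2% of the summed FPKM of the 3 DNMT genes in every library, so its lead over *Dnmt3a* and *Dnmt3b* held in all groups. The ratio of *Dnmt1* to *Tet3* FPKM was 1.62 and 1.82 in Unstimulated, 6.66 and 7.52 in Control and 9.91 and 11.2 in SMF libraries. By the whole gene value *Tet2* was itself higher in SMF than in Control, so this order of groups is given for *Tet3* only.

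**Figure D2:**
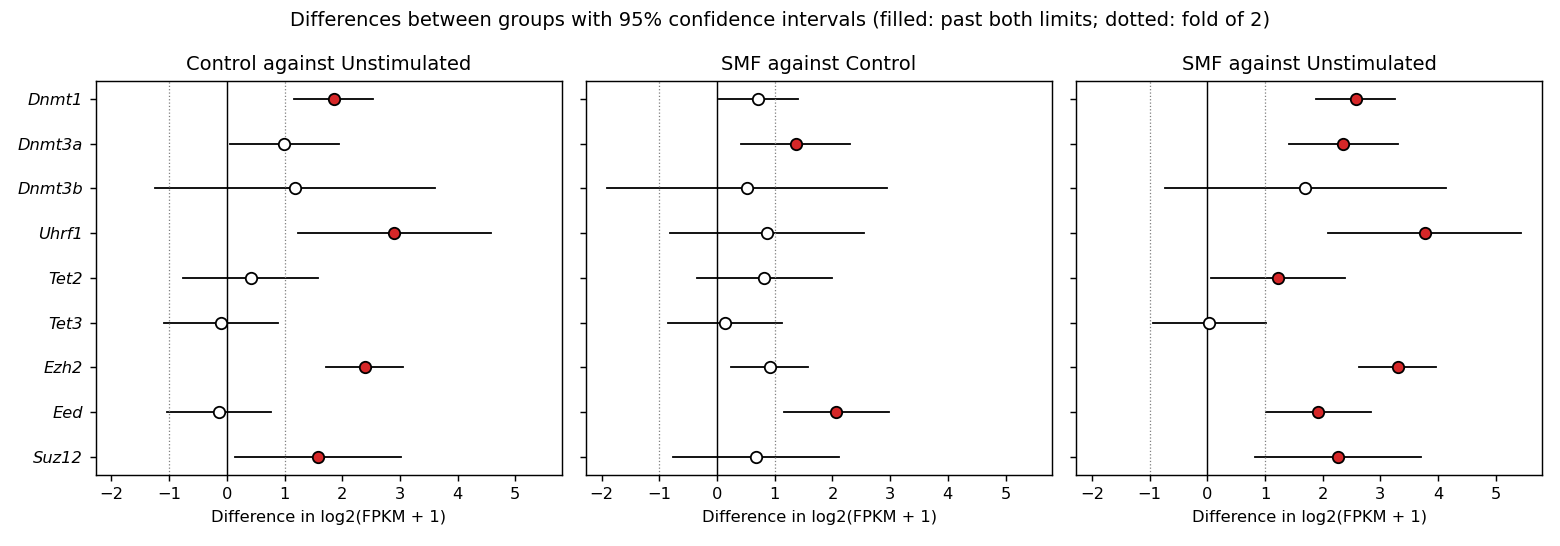
Differences in log2(FPKM + 1) of the 9 genes tested, with 95% confidence intervals from limma, for the 3 comparisons, which share libraries; filled points passed the fold and p limits and dotted lines mark a fold of 2. *Ezh2* and *Dnmt1* have narrow intervals in the left panel, *Eed* lies at 2.07 in the middle panel and at -0.14 in the left one, and *Dnmt3b* has intervals that span 0 in all panels.

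The comparison of SMF with Control libraries sets stimulation in the field against stimulation alone, but the field and the run cannot be told apart in it. *Eed* and *Dnmt3a* were called higher, 2 of the 9 genes tested, and none was called lower. Over all 14991 genes 12.5% were called higher and 5.72% lower. None of the 9 had an adjusted p under 0.05 in limma, which 0.02% of all genes had in the higher direction. An unadjusted p under 0.05 was found for *Dnmt1*, *Dnmt3a*, *Ezh2* and *Eed*. The share of all genes at that limit alone was not counted, so this is not read as a result about these genes. Both SMF libraries exceeded both Control libraries for 7 of the 9, and for 37.4% of all genes. The median of the 9 differences was 0.82, and the median of all genes was itself 0.32.

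*Eed* showed the largest difference of the 9. Its 156 and 123 FPKM in SMF libraries stood against 26.2 and 39.7 in Control, 2.07 on the log2 scale (SE 0.37; limma, adjusted p = 0.136). The call held under all 18 alternatives run. With libraries shifted to one median the difference was 1.73, and on protein-coding transcripts alone it was 1.92. Most of the *Eed* value lay outside coding transcripts in every library, and the coding share ran from 28.05% to 38.8%. Coding transcripts measured 9.08 and 12.8 FPKM in Unstimulated, 10.1 and 11.2 in Control and 48.6 and 38.2 in SMF libraries, so the step between Control and SMF was seen there too. The short transcript *Eed-203*, typed as a retained intron, gave 75.2 and 52.9 FPKM in SMF and 0 and 20.1 in Control libraries. A gene on the opposite strand, *E230029C05Rik*, overlaps exons of *Eed* over 261 bases and was at 33.7 to 69.8 FPKM in the 6 libraries; the file headers show that reads were assigned by strand.

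*Dnmt3a* was called at a difference of 1.36 (SE 0.39; limma, adjusted p = 0.167), from 8.21 and 10.6 FPKM in Control to 27.9 and 23.5 in SMF libraries. Its main transcript, *Dnmt3a-201*, measured 8.21 and 10.5 FPKM in Control and 15.5 and 14.8 in SMF. The rest in SMF lay on short transcripts, among them *Dnmt3a-207* at 9.91 FPKM in replicate 1 only and the retained intron *Dnmt3a-214* at 2.45 and 7.88. On coding transcripts alone the difference was 0.98, and on bases covered it was 0.62, so the call was lost under both. It was also lost without SMF replicate 1, where 1.24 missed the p limit.

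By the whole gene value *Ezh2* differed less than 2-fold, by 0.91 (SE 0.28; limma, adjusted p = 0.174). On coding transcripts it stood at 97.3 and 98.3 FPKM in SMF against 43.2 and 41.4 in Control, and the difference of 1.19 passed both limits. On coding transcripts 1453 of all 14991 genes were called higher and 213 lower. On bases covered *Ezh2* was not called. *Ezh2-201* (2787 bases) carried most of the coding value in Control libraries, 43.2 and 40.1 FPKM. The shorter *Ezh2-202* (2115 bases), at 0 and 0.400 in Control, was at 85.9 and 62.9 in SMF. *Dnmt1* differed by 0.72 (SE 0.28; limma, adjusted p = 0.226), also under the fold limit. Its value lay on *Dnmt1-203* in both Unstimulated libraries and Control replicate 1, and on *Dnmt1-201* in Control replicate 2 and both SMF libraries. The change of leading transcript in *Dnmt1* thus did not follow the groups. The leading transcript of *Uhrf1* differed within a group, with *Uhrf1-203* at 48.7 and 0 FPKM in SMF libraries and *Uhrf1-204* at 0 and 49.7. The change in *Ezh2* fell together with the separate SMF run, and its cause was not tested. With libraries shifted to one median, the differences of *Ezh2* and *Dnmt1* were 0.57 and 0.38.

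**Figure D3:**
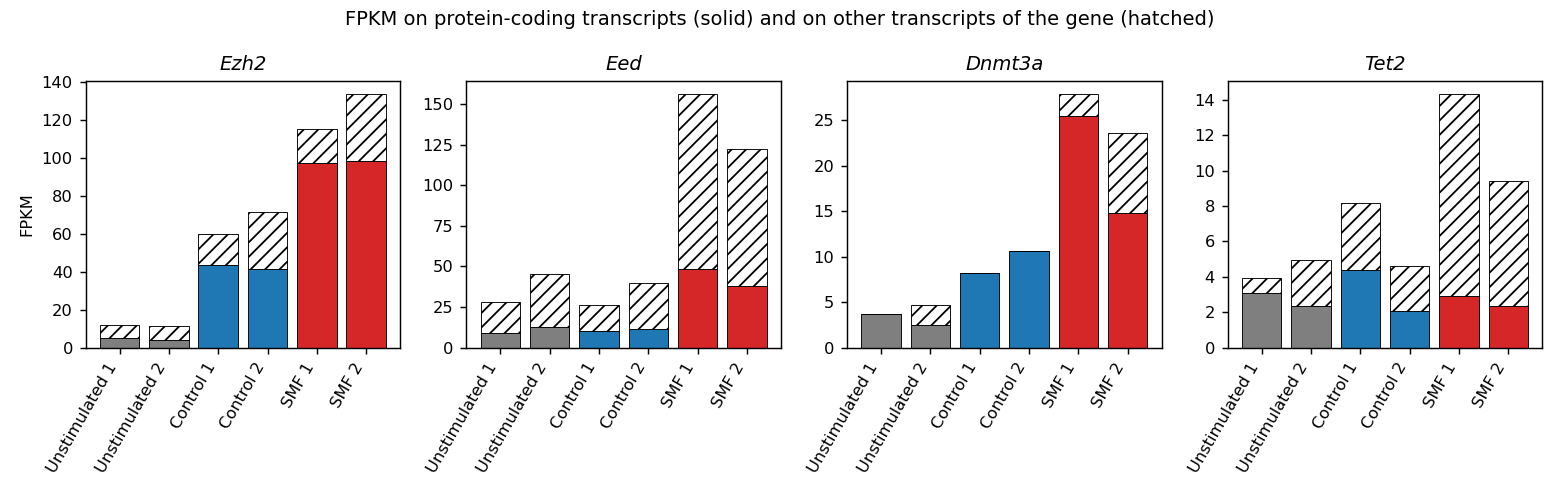
FPKM of *Ezh2*, *Eed*, *Dnmt3a* and *Tet2* in the 6 libraries (vertical axes from 0), split into protein-coding transcripts (solid, coloured by group) and other transcripts of the gene (hatched). Solid bars step up in SMF for *Ezh2* and *Eed*, whereas for *Tet2* they stay between 2.05 and 4.37 FPKM and only the hatched part is larger in SMF.

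The remaining 5 genes were not called between SMF and Control. *Uhrf1* differed by 0.87 and *Suz12* by 0.68, with no overlap of libraries but with intervals from -0.81 to 2.54 and from -0.76 to 2.12. *Tet2* differed by 0.82 (interval -0.35 to 1.98), and its higher SMF value lay on the retained-intron transcript *Tet2-206*, at 8.96 and 6.43 FPKM in SMF and 0 in the other 4 libraries. The coding transcripts of *Tet2* measured 2.93 and 2.36 FPKM in SMF and 4.37 and 2.05 in Control, a difference of -0.15. *Tet3* differed by 0.13 (interval -0.85 to 1.12), and by -0.21 with libraries shifted to one median. *Dnmt3b* differed by 0.52 (interval -1.91 to 2.95), and by -0.92 without Control replicate 1, in which it was listed at 0.

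SMF libraries were also compared with Unstimulated libraries, a contrast that shares its libraries with the other two. Called higher were 7 of 9 genes, all but *Dnmt3b* and *Tet3*, and none was lower, where 22.4% of all genes were called higher and 14.8% lower. SMF libraries lay wholly above Unstimulated ones for 8 of the 9, and for 39.7% of all genes. An adjusted p under 0.05 in limma was reached by 6 of them, and by 14.2% of all genes in that direction. *Uhrf1* differed by 3.77 (SE 0.69; adjusted p = 0.0154), and by 2.73 without Unstimulated replicate 2. *Ezh2* differed by 3.30 and *Dnmt1* by 2.57. *Dnmt3a*, *Suz12* and *Eed* differed by 2.36, 2.27 and 1.93, with 1.39 for *Suz12* without Unstimulated replicate 1. *Tet2* was called at 1.23 (adjusted p = 0.114), a call lost in 9 of 18 alternatives and reversed in sign, to -0.03, on coding transcripts.

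The other genes of the 2 pathways were described from 5 lists with 53 genes, of which 52 were tested. *Dnmt3l*, a regulator of new methylation known from germ cells, was listed at 0 in all libraries. Between Control and Unstimulated, 7 of the 52 were called higher and 2 lower, beside 12.3% and 12.6% of all genes, and the median of the 52 was 0.07. The list of DNA methylation partners held 5 of those 7, from 8 tested, with a median of 1.21. *Hells* and *Cdca7*, partners in a chromatin remodeler needed for methylation of repeats, were among them. *Hells* measured 1.62 and 0 FPKM in Unstimulated and 38.3 and 22.9 in Control libraries. *Cdca7* was listed at 0 in both Unstimulated libraries and at 19.02 and 14.7 in Control. *Tdg*, which excises oxidized cytosine, and *Pcna*, the sliding clamp of replication, differed by 1.36 and 1.27.

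In the list of PRC2 partners, 1 of 10 genes was called higher and 1 lower, with a median of 0.47, and both belong to the Polycomb-like proteins that bring PRC2 to DNA. *Mtf2* measured 3.25 and 7.45 FPKM in Unstimulated and 33.5 and 30.8 in Control libraries, a difference of 2.47 (limma, adjusted p = 0.0252). *Phf1* measured 14.8 and 12.7 in Unstimulated and 1.73 and 1.51 in Control libraries, and it fell by 2.49 on the log2 scale (limma, adjusted p = 0.0303). The ratio of *Mtf2* to *Phf1* was thus 0.219 and 0.585 in Unstimulated, 19.4 and 20.4 in Control and 13.3 and 16.8 in SMF libraries. *Ezh1*, the less active relative of *Ezh2* and typical of resting cells, was chosen for a ratio after its values were seen. It measured 3.36 and 5.29 FPKM in Unstimulated, 1.44 and 1.18 in Control and 7.47 and 5.86 in SMF libraries. The ratio of *Ezh2* to *Ezh1* was 3.59 and 2.14 in Unstimulated, 41.6 and 60.5 in Control and 15.4 and 22.8 in SMF libraries. The groups of both ratios did not overlap, and the SMF ratios were between those of the other groups. *Mtf2* and *Phf1* were the genes of their list called in opposite directions, and *Ezh1* was chosen after its values were seen. The separation of Unstimulated from Control was thus built into both ratios and is not a result. On coding transcripts alone *Ezh2* to *Ezh1* was 1.42 and 0.870, 29.98 and 34.99, and 14.2 and 26.6 in the same order, and *Ezh2* to *Eed* was 0.527 and 0.332, 4.27 and 3.70, and 2.003 and 2.57.

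**Figure D4:**
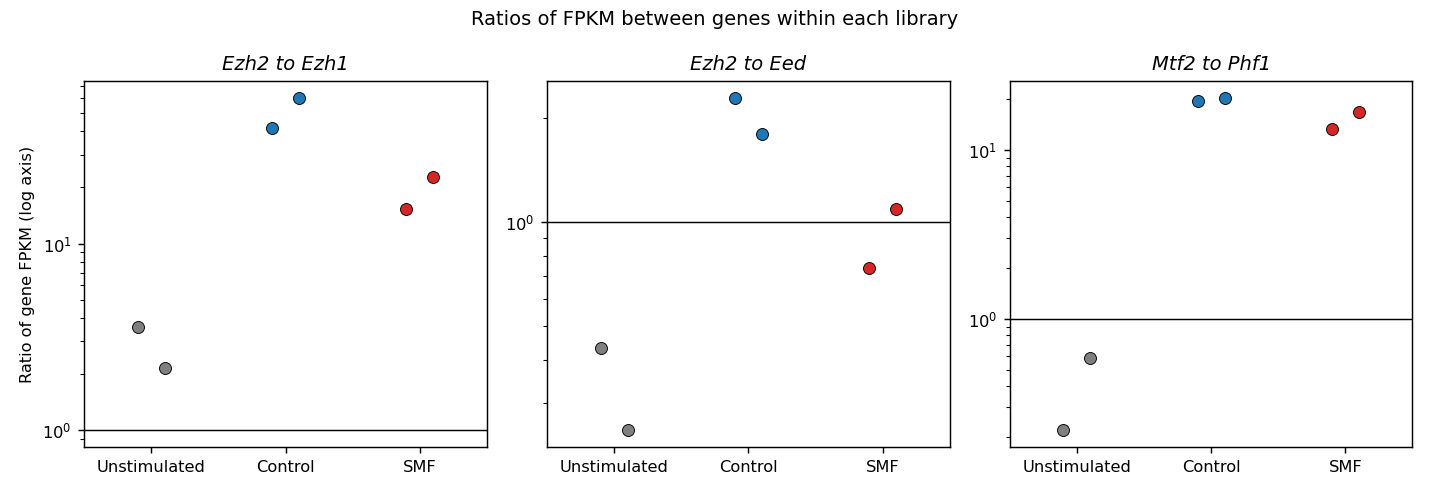
Ratios of gene FPKM within each library (log axes) for *Ezh2* to *Ezh1*, *Ezh2* to *Eed* and *Mtf2* to *Phf1*; points are libraries and the horizontal line marks equal levels. Control libraries are highest in all 3 panels, and *Ezh2* to *Eed* goes from 0.250 and 0.432 in Unstimulated to 1.80 and 2.30 in Control and 0.735 and 1.09 in SMF, where coding transcripts alone gave 2.003 and 2.57. *Ezh1*, *Mtf2* and *Phf1* were picked with their values known, so their panels are descriptions only.

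Among the 19 PRC1 subunits, which form the other main Polycomb complex, 1 was called higher and 1 lower between Control and Unstimulated, with a median of -0.05. *Cbx7*, a reader of the PRC2 mark, fell from 115 and 62.6 FPKM in Unstimulated to 27.4 and 9.53 in Control libraries, by 2.31 on the log2 scale (limma, adjusted p = 0.0583), and stood at 7.89 and 8.54 in SMF. *Pcgf5* was higher by 1.37. None of the 6 removers of Polycomb marks and none of the 9 readers of DNA methylation was called, with medians of 0.16 and 0.07.

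Between SMF and Control 9 of the 52 pathway genes were called higher and none lower, beside 12.5% and 5.72% of all genes, with a median of 0.66 beside 0.32 for all genes. With libraries shifted to one median, or to one protein-coding sum, 6 were called, without *Rbbp4*, *Cdca7* and *Zbtb33*. None had an adjusted p under 0.05. PRC2 partners held 3 of the 9 among 10 tested. *Rbbp7* and *Rbbp4*, the histone-binding subunits that EZH2, EED and SUZ12 work with, measured 243 and 183 and 77.9 and 68.5 FPKM in SMF against 37.6 and 71.9 and 26.01 and 32.1 in Control, differences of 1.998 and 1.31. *Ezh1* was the other, at 1.72. DNA methylation partners also held 3, among 8 tested. *Ahcy*, which clears the by-product of methyl transfer, differed by 1.47, *Pcna* by 1.43 and *Cdca7* by 1.07. *Phc2* of PRC1 (1.49), *Bap1*, which removes the mark of PRC1 (1.71), and *Zbtb33*, a reader of DNA methylation (1.52), were single calls in lists of 19, 6 and 9 genes. Between SMF and Unstimulated 17 of the 52 were called higher and 2, *Phf1* and *Cbx7*, lower, beside 22.4% and 14.8% of all genes.

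**Figure D5:**
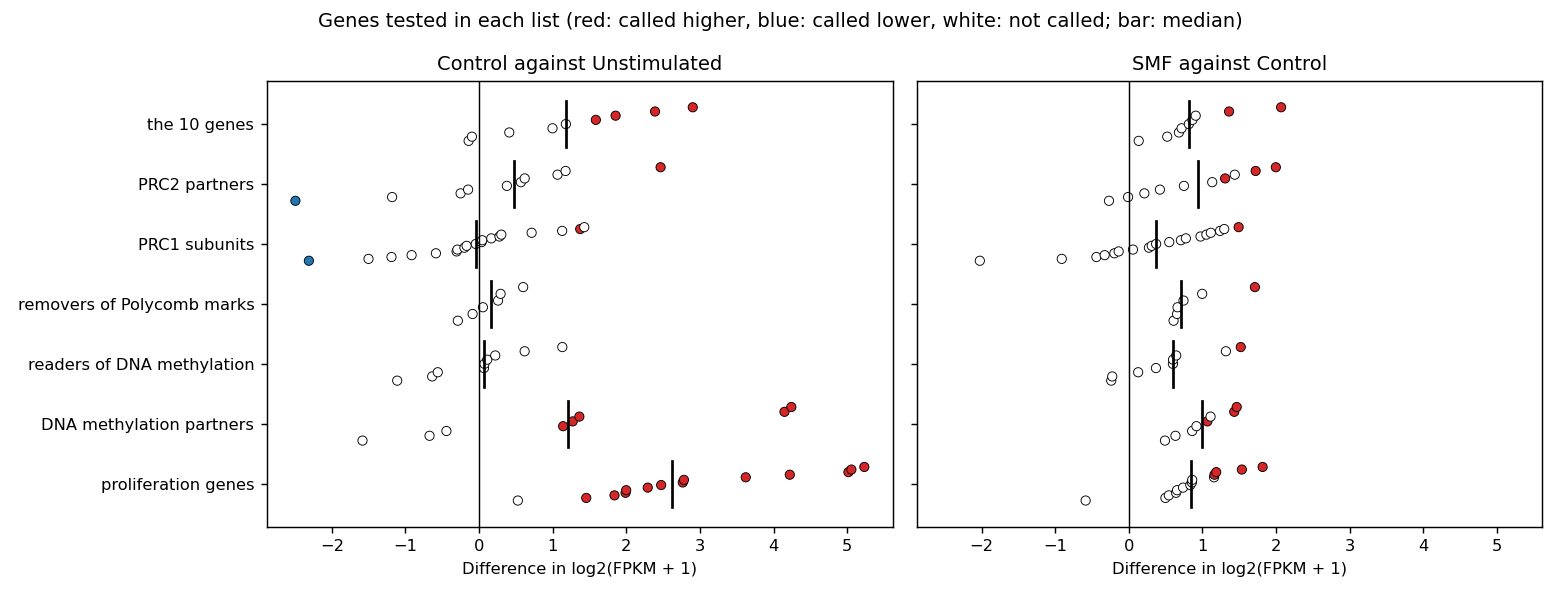
Differences in log2(FPKM + 1) for the genes tested in each list, Control against Unstimulated (left) and SMF against Control (right); points are genes, red called higher, blue called lower, white not called, and bars are medians. The 10 genes and the DNA methylation partners have medians of 1.18 and 1.21 on the left, the proliferation genes have 2.62, and the PRC1 subunits lie around 0.

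Genes of dividing cells moved with these values. The 14 proliferation genes, such as *Mki67*, *Top2a* and the *Mcm* genes, summed to 126 and 120 FPKM in Unstimulated, 668 and 647 in Control and 1187 and 1088 in SMF libraries. Of the 14, 13 were called higher in Control than in Unstimulated and 4 in SMF than in Control, beside 12.3% and 12.5% of all genes. *Cdk1* was lower in the SMF mean, at 24.3 and 23.8 FPKM against 64.8 and 20.5 in Control, and was not called. None was at 0 in a stimulated library, whereas 4 and 2 were at 0 in the Unstimulated libraries. Their part in the differences of the 10 genes was not tested.

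Across the 6 libraries the log2 values of *Ezh2* and *Dnmt1* had a Pearson correlation of 0.99, *Ezh2* and *Uhrf1* of 0.94, and *Ezh2* and *Eed* of 0.64. These are descriptions over 6 libraries in 3 groups that share runs and depth. By the same measure over 9393 genes averaging 5 FPKM or more, the closest to *Dnmt1* were *Galnt3*, *Rcc1* and *E2f2*, the closest to *Uhrf1* included *Myef2* and *Tmed10-ps*, and the closest to *Ezh2* were *Igfbp7*, *Hmmr* and *Ptma*, with correlations between 0.998 and 0.999 for the genes named.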

How the data were processed

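RNA was measured in 6 libraries made from total RNA with a stranded kit. The authors deposited 1 StringTie 1.3.5 file per library, run with stranded reads on GRCm38 and GENCODE annotation; the submitters' processing notes also name HISAT2 and Trimmomatic 0.36. Each file gives FPKM, TPM and the deposited coverage (reads per base) of 137767 transcripts. A series-wide table was not used, since its 3 columns of values carry names of no sample here. Transcript types came from GENCODE M21, with 54409 of 54446 gene identifiers matched.

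FPKM was summed here over the transcripts of a gene. Depth was coverage times length, 64.4 to 259 Mb; with no read counts to hand, counting error is not given and a 0 is only a listing at 0. The 14991 genes averaging 1 FPKM or more were fitted as log2(FPKM + 1) in limma 3.58.1 (R 4.3.3), with all 3 groups together and a variance trend, leaving 3 residual degrees of freedom before moderation. A call needed a fold of 2 or more and an unadjusted p of 0.05 or less, the thresholds of the study, with Benjamini-Hochberg adjusted p over all genes beside it. Fold changes on this scale understate changes of low genes. On simulated data with 200 genes changed 4-fold, 73.5% were called for Control against Unstimulated and 79.5% for SMF against Control, beside 4.34% and 4.45% of unchanged genes. The changed genes were drawn from genes with higher means, and spreads were shuffled over genes. No effect of run or depth was simulated, so the rates for changed genes do not cover low genes.

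The 10 genes and the lists were chosen with earlier results of these data known. All 10 genes were described; of each other list, up to 4 called genes averaging 5 FPKM or more were named by size of difference (*Ezh1*, under that level, was named outside this rule after its values were seen), and some genes are not reported here. Copies were sought with minimap2 2.31 (at least 200 bases at 95% identity). Tables and figures used Python 3.11.15, pandas 2.3.3, numpy 2.4.6 and matplotlib 3.10.9. Alternatives were other pseudocounts, filters, scalings, TPM, variance models, 2 groups alone, a replicate block and leaving out each library; protein-coding transcripts only and bases covered were added after seeing the data.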

Additional observations from a re-analysis of the deposited data

How the results depend on the processing

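Over the 18 alternatives, 431 of 483 values of single genes kept their direction and their side of the limits, 16 passed the limits only under the alternative, 21 lost them and 15 changed sign. *Dnmt1* and *Eed* kept theirs against Control or Unstimulated wherever they had been called. With each library left out in turn, the calls among the 9 genes ran from 2 to 5 between Control and Unstimulated (4 with all libraries; *Dnmt1* and *Ezh2* remained without Control replicate 2), from 2 to 4 between SMF and Control (2; *Dnmt3b* and *Ezh2* were added without Control replicate 2) and from 5 to 8 between SMF and Unstimulated (7). Among the 52 pathway genes they ran from 7 to 13 (9), from 4 to 13 (9; 4 without SMF replicate 1 and 4 without SMF replicate 2) and from 10 to 20 (19; 10 without SMF replicate 2). The number of all genes called also differed between the fits with a library left out. Between SMF and Control it was larger without Control replicate 2 than with all libraries, and smaller with either SMF library left out. The counts from these fits are therefore not read as results about these genes. On bases covered, 1 of the 9 genes, *Eed*, was called between SMF and Control. Over all 14991 genes 1586 were called higher and 1017 lower on bases covered.

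Signs changed for *Tet3*, *Tet2*, *Eed* and *Dnmt3b*, the last of which 2 libraries list at 0. For *Tet3*, SMF against Control became -0.21 and SMF against Unstimulated -0.22 with libraries shifted to one median, -0.19 and -0.42 with one FPKM sum over protein-coding genes, and -0.0092 and -0.15 on bases covered. *Tet2* on coding transcripts was at -0.15 against Control and at -0.031 against Unstimulated. With each library left out, *Tet3* ran from -0.29 to 0.097 in Control against Unstimulated, from -0.059 to 0.33 in SMF against Control and from -0.0014 to 0.077 in SMF against Unstimulated. In the same way *Eed* ran from -0.48 to 0.20 in Control against Unstimulated, below 0 except without Unstimulated replicate 2 or Control replicate 1 (0.15), and *Dnmt3b* from -0.26 to 2.62 in that comparison and from -0.92 to 1.96 in SMF against Control, with the ends set by Control replicates 1 and 2. The cause was not tested.

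The scaling decided the balance of calls over all genes between SMF and Control: 1868 were higher and 857 lower (68.6% higher), but 877 and 1441 (37.8%) with libraries shifted to one median and 38.8% higher with one protein-coding sum. With the replicate number as a block, 4, 2 and 6 of the 9 genes were called in the 3 comparisons, with *Tet2* lost between SMF and Unstimulated. Over all 14991 genes 1817, 1837 and 3359 were called higher with this block. Deviations of same-numbered libraries from their group means correlated over genes at 0.096 between Unstimulated and Control, which shared runs. These correlations were 0.030 between Unstimulated and SMF and 0.021 between SMF and Control, so the numbers were not taken as pairs. Leaving out a library leaves 1 in its group, assumed to vary like the others.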
